A study of Homo sapiens with 26 samples.

Results

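Endothelial cells line blood vessels, and a small set of genes is read as their signature. VWF codes for von Willebrand factor, the large secreted glycoprotein that tethers platelets to damaged vessel walls and carries coagulation factor VIII. MMRN2 and EGFL7 code for proteins of the vessel matrix, KDR and FLT1 for receptors of vascular endothelial growth factor (VEGF), ENG for the TGF-beta and BMP co-receptor endoglin, and CLDN5 and PECAM1 for proteins of the junctions between endothelial cells. A tumor cell line grown alone contains no vessel, whereas a tumor grown in a mouse is fed by vessels of the host. Neuroblastoma arises from the sympathetic lineage of the neural crest, in which these genes are not used as markers.

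These 8 genes were followed through every library, 8 of the 26485 genes in each count table. They were taken by symbol, and VWF was among them because its RNA was higher with both hairpins, so in those comparisons the 8 genes are described without a test. The cells were KELLY, a human neuroblastoma line with MYCN amplification, carrying a lentiviral vector switched on by doxycycline. The vector was either the empty vector F1HUTG (EV) or held an shRNA against RUNX1T1, a transcriptional co-repressor, named sh4 or shAMB. Each of these lines was kept for 72 h with DMSO or with doxycycline, with 3 libraries per group and 18 in all. A further 8 libraries came from subcutaneous KELLY tumors in NOD SCID gamma mice, which lack T, B and NK cells but keep their own endothelium, fibroblasts and myeloid cells. Of these, 4 were labelled control and 4 RUNX1T1 KO. The study's text describes mice on control food or doxycycline food, with tumors taken at an early time point or at the endpoint. The titles of these 8 libraries give neither the food nor the time of harvest. The labels do not name the hairpin of the tumors. The study's text gives it as the shRNA built on an Ambion siRNA sequence, and no label says whether that is sh4 or shAMB. Nothing in the labels ties libraries to separate cultures, so p-values measure the spread between these libraries.

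Libraries held 35115915 to 54736733 expected counts in culture and 47346063 to 62378060 in the xenografts. A count of 3 was taken as the floor of detection, which is 0.0525 to 0.0865 CPM (counts scaled by library size) in culture and 0.0467 to 0.0677 CPM in the xenografts. This floor covers counting error only. All 13 neuroblastoma identity genes were above the floor in all 26 libraries. The targeted RNA did not show the knockdown or knockout that the labels name. RUNX1T1 averaged 34.3 CPM in sh4 with DMSO and 31.8 CPM with doxycycline (log2 fold change -0.11, adjusted p = 0.117), and 40.9 and 42.5 CPM in shAMB (0.06, adjusted p = 0.378). Before induction it was lower in sh4 than in EV (-0.29, adjusted p = 0.0144). In the xenografts it averaged 35.5 CPM in controls and 30.2 CPM in those labelled KO (-0.23, adjusted p = 0.229). These values are of RNA only. The paper reports less RUNX1T1 protein on western blots of KELLY cells after doxycycline with both of its shRNA constructs. It also reports loss of RUNX1T1 by immunostaining in KELLY tumors after knockdown. Protein was not measured here, so whether it fell in these samples was not tested. Groups are therefore called by their labels, and each direction below is that of the libraries so labelled.

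The 8 genes lie on 7 chromosomes. In RefSeq coordinates on GRCh38.p14, with strands from GENCODE, VWF spans chr12:5948877-6124670 on the minus strand, KDR chr4:55078481-55125595 (minus), FLT1 chr13:28300346-28495128 (minus), ENG chr9:127815016-127854658 (minus), EGFL7 chr9:136658856-136672678 (plus), MMRN2 chr10:86935540-86957615 (minus), CLDN5 chr22:19523024-19525337 (minus) and PECAM1 chr17:64319415-64390860 (minus). All values are gene totals over exons. VWF has a pseudogene, VWFP1, at chr22:16690097-16704461, whose transcript matched 2877 of the 8830 bases of the VWF transcript (32.6%) at 97.2% identity. How reads shared by both copies were divided is not given in the sources used here, so the VWF value is uncertain to that extent, and VWFP1 was not analysed here. In the GENCODE annotation, exons of other genes overlapped 8.65% of the exonic bases of MMRN2 on the same strand and 8.15% of those of ENG on the opposite strand, and none of the exonic bases of the other 6.

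Many endothelial genes are known to be driven by ETS factors, which bind a GGAA core, and ETS1 and FLI1 are 2 such factors measured here. The 250 bases before the start of transcription were therefore searched for the letters AGGAAG on both strands. RefSeq windows were at hand for 5 of the 8 genes, with 6 starts since EGFL7 has 2, and not for VWF, CLDN5 or PECAM1. The letters were present in 5 of the 6 windows, against 28.7% of all 35116 promoter windows of the same length. The window of KDR held none. The GATA letters AGATAA (9.17% of all windows) and the E-box letters CAGATG (12.2%) were in none of the 6, and no matches overlapped. A match is a run of letters and not a proven site. The matched stretches, found in every window searched except that of KDR, are shown 5′ to 3′ on the strand of the gene. AGGAAG or its reverse complement CTTCCT is in capitals.
ENG, chr9:127854755-127854784, 114 bases before the start: aagcccgtggcaCTTCCTctacccggttgg
ENG, chr9:127854709-127854738, 68 bases before the start: gccccttctctaAGGAAGcgcatttcctgc
EGFL7 first start, chr9:136658788-136658817, 56 bases before it: tgttatccaggcAGGAAGcggggtggaccg
EGFL7 second start, chr9:136662823-136662852, 81 bases before it: gagaacacacacAGGAAGtccggctgggaa
EGFL7 second start, chr9:136662889-136662915, 15 bases before it: taaaaagccgccCTTCCTcgcccgggg
MMRN2, chr10:86957650-86957679, 52 bases before the start: cggcccaggccaCTTCCTctctttgttgtc
FLT1, chr13:28495240-28495269, 129 bases before the start: agcgagcctgggAGGAAGaagagggtaggt
FLT1, chr13:28495164-28495193, 53 bases before the start: aggtgccggggtAGGAAGtgggctggggaa

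Cultured KELLY cells, with no host cell present, already held RNA of 5 of the 8 genes. VWF, MMRN2, EGFL7, ENG and KDR were above 3 counts in all 18 culture libraries, whereas CLDN5 reached at most 6 counts, PECAM1 at most 4 and FLT1 at most 2. FLT1 was at 0 in 17 of the 18, which allows up to 0.0865 CPM in the shallowest. Per kilobase of gene length (RPKM), which allows genes to be compared, the order in EV cells with DMSO was ENG (0.963 ± 0.362, SD, n = 3), EGFL7 (0.719 ± 0.283), KDR (0.241 ± 0.0589), VWF (0.0949 ± 0.0116) and MMRN2 (0.0930 ± 0.0103). CLDN5 followed at 0.0349 ± 0.0160 and PECAM1 at 0.00515 ± 0.00242, with FLT1 at 0 in all 3. The gap between ENG and EGFL7 was smaller than the sum of their SDs, as was that between VWF and MMRN2.

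VWF was in the fourth place of that order. In EV cells the 3 libraries with DMSO had 0.753, 0.809 and 0.951 CPM and the 3 with doxycycline 0.851, 0.755 and 0.533 CPM. In sh4 cells VWF was at 0.942, 0.964 and 0.563 CPM with DMSO and at 3.85, 3.72 and 5.82 CPM with doxycycline. In shAMB cells it was at 0.690, 0.728 and 0.562 CPM with DMSO and at 4.79, 5.04 and 7.18 CPM with doxycycline. The lowest library with an induced hairpin was thus above the highest of the 12 others. In expected counts these were 163 to 237 (sh4) and 214 to 311 (shAMB) reads, against 19 to 49 in the remaining culture libraries.

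The fitted log2 fold change of VWF with doxycycline was 2.42 ± 0.24 (SE) in sh4 and 3.09 ± 0.25 in shAMB. Since VWF was chosen on these 2 comparisons, no test is given. Of all 14905 genes tested in culture, 22.9% were called higher and 18% lower with sh4, and 37.6% higher and 28.4% lower with shAMB (adjusted p under 0.05), so movement in itself was common. The groups did not overlap for 41.3% of genes with sh4 and 73.4% with shAMB. In EV cells, where the rule used no value, VWF did not pass the test (log2 fold change -0.22, 95% interval -0.815 to 0.377, adjusted p = 0.723). Only 0.0939% of genes were called in EV cells.

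**Figure D1:**
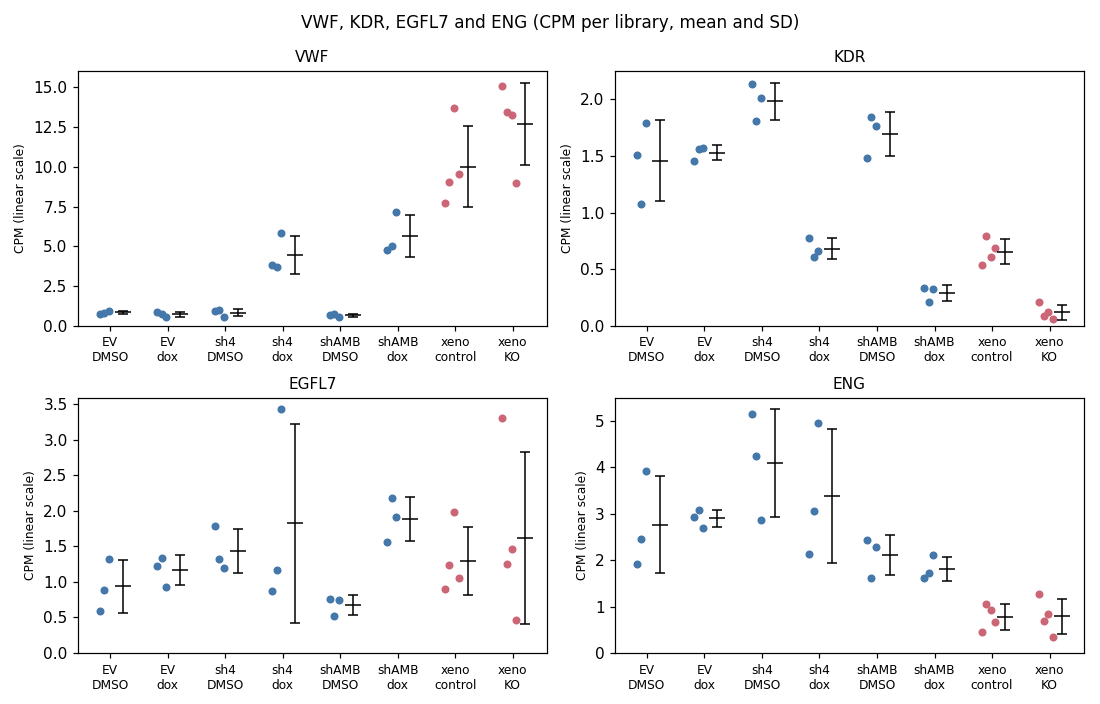
CPM (linear axis from 0) of VWF, KDR, EGFL7 and ENG in each of the 26 libraries, by group, with 1 point per library and the mean and SD beside them in black; culture groups are blue and xenografts red. VWF was at 3.72 CPM or more in the hairpin lines with doxycycline and at 0.964 CPM or less in other cultures, and the points of KDR moved the opposite way.

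KDR, the main signalling receptor for VEGF-A, moved the other way. Its 3 libraries had 1.51, 1.08 and 1.79 CPM in EV with DMSO and 1.45, 1.56 and 1.57 CPM with doxycycline. With sh4 it was at 2.13, 1.81 and 2.01 CPM with DMSO and at 0.779, 0.603 and 0.663 CPM with doxycycline. With shAMB it was at 1.48, 1.85 and 1.77 CPM with DMSO and at 0.336, 0.210 and 0.323 CPM with doxycycline. Neither pair of groups overlapped. The fitted log2 fold changes were -1.54 ± 0.19 (SE) with sh4 and -2.56 ± 0.21 with shAMB, described without a test. In EV cells KDR did not pass the test (0.07, 95% interval -0.315 to 0.453, adjusted p = 0.858).

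The matrix genes were less regular. EGFL7, a secreted protein that guides vessel tube formation, was at 0.764, 0.520 and 0.749 CPM in shAMB with DMSO and at 1.57, 2.19 and 1.92 CPM with doxycycline, with no overlap (log2 fold change 1.48 ± 0.43, SE). With sh4 it was at 1.79, 1.32 and 1.20 CPM with DMSO and at 0.874, 1.17 and 3.44 CPM with doxycycline. The sh4 groups overlapped, and 1 library set the sign: the log2 fold change was 0.33 with all libraries and -0.49 without sh4 doxycycline replicate 3. The miRNA gene MIR126, which lies in an intron of EGFL7, was listed at 0 in all 26 libraries. MMRN2, an extracellular matrix glycoprotein of blood vessels, had 6 to 32 counts per culture library. Its mean went from 0.490 to 0.291 CPM with sh4 (log2 fold change -0.755 ± 0.361, SE, groups not overlapping) and from 0.306 to 0.537 CPM with shAMB (0.823 ± 0.364, overlapping). Without shAMB DMSO replicate 3 the latter was 1.48.

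ENG, the co-receptor endoglin, was the most abundant of the 8 per length in EV cells and overlapped between groups in each line. Its means were 2.76 and 2.90 CPM in EV with DMSO and doxycycline, 4.09 and 3.38 CPM in sh4, and 2.11 and 1.81 CPM in shAMB. Replicates of 1 group spread widely, from 2.86 to 5.15 CPM in sh4 with DMSO and from 2.13 to 4.96 CPM with doxycycline. With doxycycline the order per length in shAMB cells was EGFL7 (1.45 ± 0.238 RPKM, SD, n = 3), VWF (0.642 ± 0.149), ENG (0.632 ± 0.0887), MMRN2 (0.128 ± 0.0349), CLDN5 (0.0517 ± 0.0105) and KDR (0.0478 ± 0.0115). VWF and ENG were not separated by more than the sum of their SDs, nor were CLDN5 and KDR.

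Before induction the lines were compared in DMSO. None of the 5 genes passed the test between sh4 and EV or between shAMB and EV (edgeR). At an unadjusted p under 0.05 there were 1 and 0 of the 5, against 4180 and 1639 of all 14905 genes. For VWF the log2 differences were 0.00 (adjusted p = 0.993) and -0.34 (adjusted p = 0.66). KDR was higher by 0.45 in sh4 (adjusted p = 0.16) and ENG by 0.58 (adjusted p = 0.199), neither past the threshold. The 3 shAMB libraries lay below the 3 of EV for VWF, and the 3 sh4 libraries above those of EV for KDR, without overlap. In the other comparisons of these genes the groups overlapped. The share of all genes without overlap was not counted in DMSO, so no result is read from this. The share of all genes called was 1.12% for sh4 and 1.52% for shAMB.

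In the xenografts all 8 genes were above the floor in at least some libraries, and 5 in all of them. VWF was at 7.75, 9.06, 13.7 and 9.57 CPM in the controls and at 15.1, 13.4, 13.3 and 9.00 CPM in those labelled KO. These values overlapped, and every tumor was above every culture. The mean of the control xenografts was 12 times that of EV cells with DMSO (12.2 times when all 26 libraries were scaled together, a scaling chosen after seeing the data). MMRN2 was likewise higher, by a ratio of 4.54, and EGFL7 stood at 1.38. The ratios of KDR (0.449) and ENG (0.281) were below 1, although KDR in shAMB cells with doxycycline (0.210 to 0.336 CPM) lay below every control tumor. No ratio is given for CLDN5, FLT1 and PECAM1, whose EV libraries with DMSO were all at or under the floor. The tables were scaled separately, so tissue and table cannot be told apart and no test was made. Small RNA genes took 7.08 to 18.3% of the counts in the xenografts and 0.739 to 1.57% in culture, and the part of this difference in the ratios was not tested.

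Per length, the order in control xenografts was VWF (1.13 ± 0.290 RPKM, SD, n = 4), EGFL7 (0.995 ± 0.371), MMRN2 (0.422 ± 0.0645), ENG (0.271 ± 0.0953), CLDN5 (0.225 ± 0.0854), KDR (0.108 ± 0.0181), FLT1 (0.0504 ± 0.0579) and PECAM1 (0.0177 ± 0.0195). Of the neighbours in this order, EGFL7 and MMRN2, and CLDN5 and KDR, were separated by more than the sum of their SDs. ENG stood in the first place in EV cells and in the fourth here.

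Between the tumor groups, KDR was lower in those labelled KO. It was at 0.534, 0.790, 0.609 and 0.686 CPM in the controls and at 0.209, 0.0879, 0.125 and 0.0577 CPM in those labelled KO, without overlap, which also held for 36.7% of all genes. The log2 fold change was -2.42 (95% interval -3.28 to -1.59, adjusted p = 0.000595), lower in 4 of 4 libraries. For comparison, 21.2% of the 15960 genes tested were called higher and 19.9% lower. KDR passed the filter on low counts through the control group, where it is high, with 3 to 12 counts per library labelled KO. Without that filter the value was -2.48 (adjusted p = 0.000506), and from log2(TPM + 0.1) it was -0.48, where the mean TPM of both groups (0.05 and 0.0075) lay below the added 0.1. In a bulk sample, fewer cells of a type and less RNA per cell cannot be told apart.

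PECAM1, the adhesion receptor CD31, was at 0.0854, 0.0452, 0.0358 and 0.318 CPM in control tumors and at 0.105, 0.633, 0.420 and 1.56 CPM in those labelled KO. The groups overlapped and rested on 2 to 19 against 6 to 81 counts. PECAM1 passed the filter on low counts mainly through the libraries labelled KO, where it is high. The log2 fold change was 2.39 (95% interval 0.612 to 4.21, adjusted p = 0.0356), with 3 of 4 libraries above the control mean. The value ranged from 1.59 (without KO replicate 4) to 3.56 (without control replicate 4). The call was lost, with adjusted p from 0.0523 to 0.105, when any of control replicates 1, 2 and 3 or KO replicates 2, 3 and 4 was left out. Without the filter on low counts the value was 2.34 (adjusted p = 0.0358). From log2(TPM + 0.1) the value was 0.40, with mean TPM (0.01 and 0.0475) below the added 0.1.

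The other 6 genes did not pass the test between the tumor groups. For VWF the log2 fold change was 0.34 (95% interval -0.11 to 0.794, adjusted p = 0.209). For MMRN2 it was 0.48 (95% interval 0.0286 to 0.93, adjusted p = 0.0842), with 4 of 4 libraries above the control mean. FLT1, the VEGF receptor that binds VEGF-A tightly and also PGF and VEGF-B, was at 0.171, 0, 0.143 and 0.619 CPM in the controls and at 0.558, 0.598, 0.265 and 0.577 CPM in those labelled KO. Its log2 fold change of 1.03 (adjusted p = 0.259) became 2.18 (adjusted p = 0.0278) without control replicate 4. The remaining controls held 0 to 8 counts of FLT1 and the libraries labelled KO 17 to 34. FLT1 thus passed the filter on low counts through the latter group, where it is high. Control replicate 4 also held the most counts of CD93 (45, against 6 to 25 in the other xenografts), an endothelial and myeloid receptor, and the part of this in the result was not tested. EGFL7 (0.32, adjusted p = 0.63), ENG (0.02, adjusted p = 0.971) and CLDN5 (0.03, adjusted p = 0.968), the claudin of tight junctions, had intervals reaching from below -0.7 to above 0.8 on the log2 scale.

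**Figure D2:**
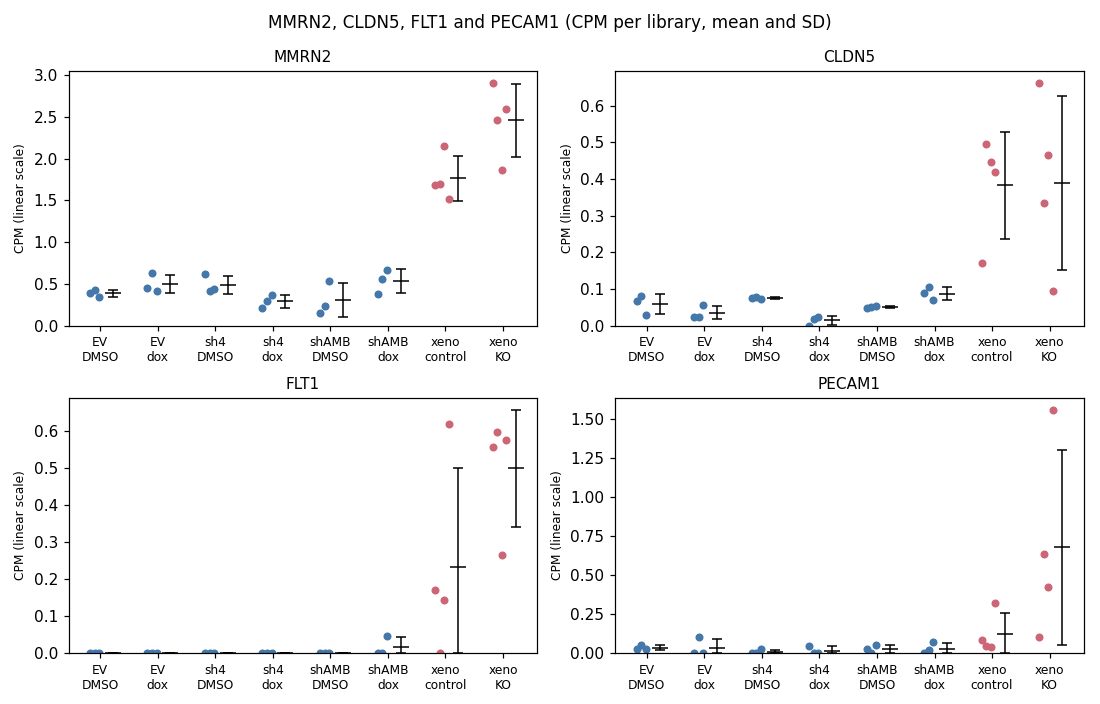
CPM (linear axis from 0) of MMRN2, CLDN5, FLT1 and PECAM1 in each library, with 1 point per library and the mean and SD beside them (bars stop at 0); culture groups are blue and xenografts red. FLT1 and PECAM1 lay near 0 in culture, and in the xenografts control replicate 4 and the libraries labelled KO held most of their signal.

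**Figure D3:**
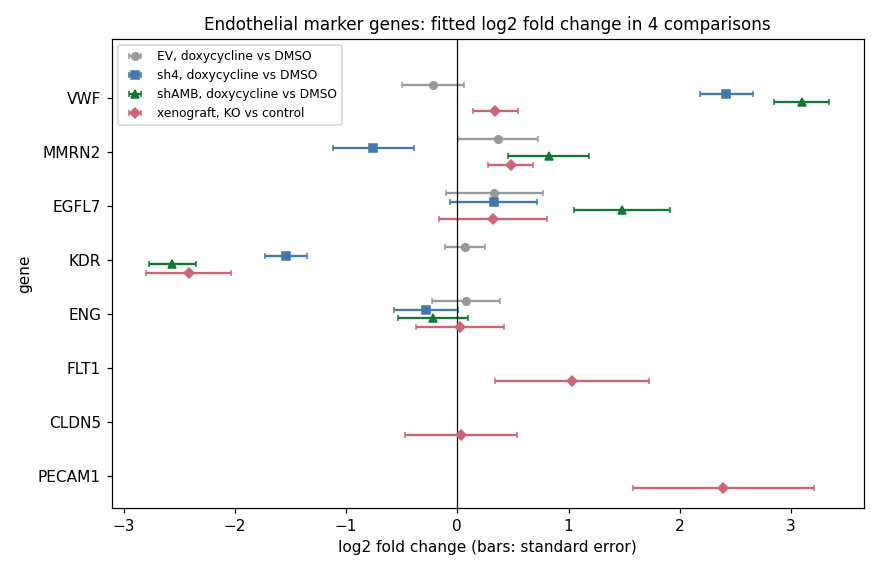
Fitted log2 fold changes of the 8 genes with their standard errors in the EV, sh4 and shAMB lines (doxycycline against DMSO) and in the xenografts (labelled KO against control); FLT1, CLDN5 and PECAM1 had too few counts for a fit in culture. VWF reached 2.42 and 3.09 with the hairpins and 0.34 in the tumors, whereas KDR was negative in all 3 of these comparisons.

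Other genes of the endothelial signature were used to see which of them tumor cells express without a host. Of 36 such genes, 14 were above the floor in all 18 culture libraries, 16 in all 8 xenografts, 9 in at least 1 xenograft and no culture, and 4 in none. The defining markers were at the edge of detection. CDH5, the cadherin of endothelial junctions, had 0 to 23 counts in culture and 0 to 10 in the xenografts. TEK, the angiopoietin receptor, had 0 to 11 and 7 to 13 counts. TIE1, its partner receptor, was at 0 in all cultures except shAMB with doxycycline (1, 2 and 2 counts), and had 0, 0, 0 and 2 counts in control tumors and 4, 13, 16 and 1 in those labelled KO. CD93, a lectin-like receptor, was at 0 in all 18 cultures and had 6 to 45 counts in every xenograft. CD93 was named after its values were seen.

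Markers of platelets, leukocytes and erythroid cells were sparse in the xenografts, whereas most fibroblast and pericyte genes were also expressed in culture. Of the 8 platelet and megakaryocyte genes, 2 were above the floor in all xenografts, and their sum was 8.26 to 9.80 CPM in controls and 9.87 to 12.7 CPM in those labelled KO, against 4.68 to 8.35 CPM in culture. PF4 was at 0 everywhere. Of the 12 macrophage and leukocyte genes 2 were above the floor in all xenografts, with a sum of 1.32 to 1.81 and 1.92 to 2.93 CPM, against 0.754 to 2.40 CPM in culture. CD163, a macrophage scavenger receptor, had 17 counts in control replicate 4 and 0 in every other library. The hemoglobin genes HBA1 and HBB were at 0 in all 26 libraries, and the 6 erythroid genes summed to at most 0.418 CPM. Of 12 fibroblast and pericyte genes, 10 were above the floor in all culture libraries and 10 in all xenografts, with sums of 8026 to 10300 CPM in controls and 2438 to 3060 CPM in those labelled KO, and of 4094 to 11590 CPM in culture. These sums were mostly RGS5, a pericyte gene at 9029 CPM on average in control tumors, 2713 CPM in those labelled KO and 4220 to 10850 CPM in cultures without a host. Of the 10 tested in the tumors, RGS5 and NOTCH3 (-1.38, adjusted p = 0.0047) were called lower, and CSPG4 (2.35, adjusted p = 0.00109) and PDGFRB (0.59, adjusted p = 0.0154) higher. These 4 genes were named after their values were seen. Host cells in these tumors are of mouse origin and reads were placed on the human genome. No filter by species is described in the sources used here, and the part of mouse reads in the xenograft values of the 8 genes was not tested.

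In the hairpin lines the other endothelial genes changed with doxycycline in both directions. With sh4, 9 of 15 tested were called, 5 higher and 4 lower (median log2 fold change 0.03, against 0.00 over all genes), where 22.9% of all genes were called higher and 18% lower. FLI1, an ETS factor of endothelial and blood cells, rose from 0.284 to 2.37 CPM (log2 fold change 3.04 ± 0.22, SE, adjusted p = 2.62e-08), and did not pass the test in EV cells (0.98, adjusted p = 0.519). With shAMB FLI1 also rose, by 1.66 (adjusted p = 1.16e-05), and in the xenografts it did not pass the test (-0.15, adjusted p = 0.756). With sh4 PTPRB, a phosphatase that restrains TEK, fell by 1.17 on the log2 scale (adjusted p = 0.000139). ACVRL1, the BMP9 receptor that works with ENG, fell by 0.80 (adjusted p = 0.00378), and APLNR, the apelin receptor, by 0.61 (adjusted p = 0.0112).

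With shAMB, 13 of 15 were called, 10 higher and 3 lower (median 0.51, against 0.10 over all genes), where 37.6% of all genes were called higher and 28.4% lower. CDH5 rose by 2.91 ± 0.72 (SE, adjusted p = 0.00186), from 0, 2 and 3 counts to 13, 23 and 14, and passed the filter on low counts through the latter group, where it is high. ACVRL1 rose by 2.58 ± 0.19 (adjusted p = 1.35e-08), from 2.33 to 14.0 CPM. NOS3, the endothelial nitric oxide synthase, rose by 2.08 ± 0.28 (adjusted p = 7.35e-06). APLNR fell by 1.43 (adjusted p = 9.05e-06). In EV cells none of 15 was called by edgeR or DESeq2. At an unadjusted p under 0.05 in edgeR there were 4 of the 15, against 879 of all 14905 genes. Before induction, S1PR1, a sphingosine phosphate receptor, was higher in sh4 than in EV (0.32, adjusted p = 0.0181), and LMO2, a transcriptional adaptor of blood and endothelium, was higher in shAMB than in EV (1.73, adjusted p = 0.000177).

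In the xenografts 7 of 16 tested were called, 5 higher and 2 lower in those labelled KO (median 0.13, against 0.02 over all genes). Of all genes 21.2% were called higher and 19.9% lower, so the share called was near the background. LMO2 rose by 1.68 ± 0.26 (SE, adjusted p = 0.000501), from 1.40 to 4.50 CPM, and STAB1, a scavenger receptor of sinusoidal endothelium and macrophages, by 1.47 ± 0.39 (adjusted p = 0.011). APLNR fell by 3.33 (adjusted p = 0.000104), from 0.543 to 0.0528 CPM, having passed the filter on low counts through the controls alone, and S1PR1 fell by 2.31 (adjusted p = 9.8e-06), from 10.5 to 2.10 CPM. Some of these genes are also expressed outside endothelium, and S1PR1 was at 9.47 to 23.2 CPM on average in cultured cells.

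**Figure D4:**
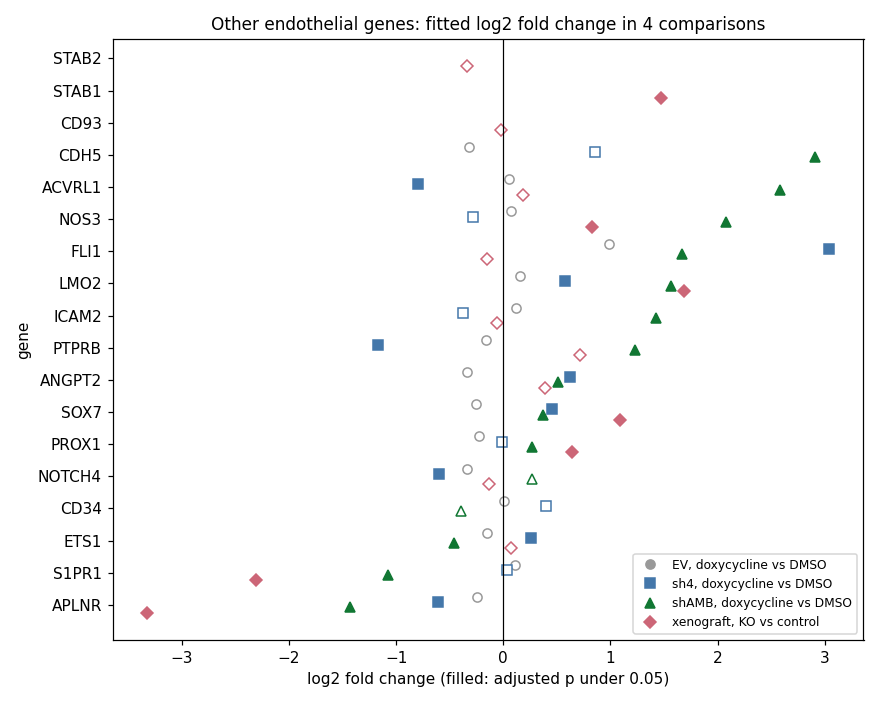
Fitted log2 fold changes of the other endothelial genes that passed the filter, with filled symbols for an adjusted p under 0.05, in the EV, sh4 and shAMB lines (doxycycline against DMSO) and in the xenografts (labelled KO against control). None of them was called in EV cells, and ACVRL1 and PTPRB were called lower with sh4 and higher with shAMB.

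Of 21 ligands and partners of the 8 genes, 15 were above the floor in all culture libraries, and hence in tumor cells without a host. VEGFA, the ligand of KDR and FLT1, rose from 82.5 to 129 CPM with sh4 (log2 fold change 0.65 ± 0.09, SE, adjusted p = 2.32e-05) and from 68.8 to 105 CPM with shAMB (0.61 ± 0.09, adjusted p = 2.05e-05), and did not pass the test in EV cells (0.16, adjusted p = 0.672) or in the xenografts (0.11, adjusted p = 0.702). With sh4, 10 of 16 tested were called, 9 higher and 1 lower, and with shAMB 13 of 16, 9 higher and 4 lower (medians 0.36 and 0.34). The shares over all genes were 22.9% higher and 18% lower with sh4, and 37.6% and 28.4% with shAMB. In the xenografts 9 of 17 were called, 6 higher and 3 lower (median 0.26, with 21.2% and 19.9% of all genes). None of 16 was called in EV cells, with 2 at an unadjusted p under 0.05, against 879 of all 14905 genes.

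Among these partners, JAG1, a Notch ligand, rose by 1.11 with sh4 (adjusted p = 1.38e-05) and by 1.12 with shAMB (adjusted p = 5.32e-06). It was also called higher in the xenografts labelled KO (1.69 ± 0.13, adjusted p = 8.53e-06). DLL4, the Notch ligand of endothelial tip cells, was at 0.0427, 0.0677, 0.233 and 0.151 CPM in control tumors and at 0.750, 1.18, 0.950 and 0.673 CPM in those labelled KO (2.78 ± 0.44, adjusted p = 0.000584). It passed the filter on low counts through the latter group, where it is high. For the partners of VWF, ADAMTS13, the protease that cleaves it, rose by 2.27 with shAMB (adjusted p = 3.07e-06). F8, the factor VIII it carries, rose by 0.88 (adjusted p = 0.0263) and GP1BA, its platelet receptor, by 1.11 (adjusted p = 0.0252) with sh4. Both were under 0.5 CPM on average and passed the filter on low counts mainly through groups where they are high. The sh4 groups of GP1BA overlapped. In EV cells F8 differed by a similar 0.83 with doxycycline, short of the threshold (unadjusted p = 0.0307, adjusted p = 0.672). With shAMB F8 did not pass the test (-0.09, adjusted p = 0.859), and GP1BA rose by 0.96 (adjusted p = 0.0358). BMPR2, the type II receptor that works with ACVRL1 and ENG, fell by 0.74 with sh4 (adjusted p = 4.28e-07). It rose by 0.48 with shAMB (adjusted p = 1.62e-05) and by 0.53 in the xenografts labelled KO (adjusted p = 0.0125). FIGF, the symbol these tables use for VEGF-D, fell by 1.58 with shAMB (adjusted p = 0.000641) and by 1.80 in the xenografts labelled KO (adjusted p = 0.000187). VEGFC fell by 1.46 with shAMB (adjusted p = 6.12e-07). TGFBR2 fell by 1.23 with shAMB (adjusted p = 5.98e-08) and by 1.61 in the xenografts (adjusted p = 0.000992), and rose by 0.49 with sh4 (adjusted p = 0.000921).

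Across the 18 culture libraries, the genes whose log2 CPM followed VWF most closely among 12708 compared were TAP2 (Pearson r = 0.987), TK2 (0.987), PFKFB3 (0.984), SMOC1 (0.980) and MYCNOS (0.978). TAP2 is a subunit of the peptide transporter of antigen presentation, TK2 a mitochondrial thymidine kinase, PFKFB3 a regulator of glycolysis, SMOC1 a secreted matrix protein and MYCNOS a transcript antisense to MYCN, which shares sequence with it on the opposite strand. These values describe mainly the 6 libraries with an induced hairpin standing apart from the other 12. TAP2 went from 1.78 to 8.95 CPM with sh4 and from 1.47 to 13.0 CPM with shAMB, with 1.64 and 1.69 CPM in EV. In the xenografts TAP2 differed by 2.92 on the log2 scale and VWF by 0.34. Among the endothelial genes, r with VWF was 0.640 for EGFL7, 0.0486 for MMRN2, -0.137 for ENG and -0.905 for KDR.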

How the data were processed

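RNA was sequenced from 18 cultures and 8 xenografts, in 2 tables. The authors deposited RSEM expected counts and TPM values per gene, and per the labels used STAR, SAMtools and RSEM with hg38. Their versions for these libraries are not given in the sources used here. Expected counts were rounded (91.84% and 91.0% were already whole), filtered with filterByExpr and scaled by TMM within each table. CPM use these factors, and RPKM divides CPM by the deposited gene length. Tests were two-sided quasi-likelihood tests (edgeR 4.0.16, R 4.3.3) with a mean per group, adjusted by Benjamini-Hochberg over all 14905 (culture) or 15960 (xenograft) genes, called at an adjusted p under 0.05. The step was tested on simulated counts. Sequences and positions came from RefSeq and GENCODE, and the pseudogene match from BLAST 2.17.0. In the column names, Neg was taken as without and Pos as with doxycycline, from the words alone.

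The 8 genes and all lists were chosen with earlier results of these data known. Named genes were these 8, CDH5, TIE1 and TEK, VEGFA, RUNX1T1, the up to 4 called genes of the 2 endothelial lists with the largest change in each direction per comparison, and the 5 genes most like VWF. Alternatives were RLE scaling, no filter, DESeq2 1.42.0, a replicate block, a log2 threshold of 1, log2(TPM + 0.1) from the deposited TPM and leaving out each library.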

Additional observations from a re-analysis of the deposited data

Results flagged for a closer look

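Among 22 groups of xenograft libraries examined for the 8 genes, CDH5, TIE1 and TEK, 4 held a library far from the other 3. The rule was set to flag about 1 in 20 groups by chance. That rate need not hold for small and tied counts such as these, so no excess is read from the 4. FLT1 had a lowest library of 0.265 CPM in the xenografts labelled KO (17 counts). In the controls CDH5 had a lowest library of 0 CPM (0 counts, against 5 to 6). TIE1 had a highest library of 0.0335 CPM in the controls (2 counts, against 0), and TEK one of 0.213 CPM (10 counts, against 7 to 9).

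The effect of doxycycline was called in opposite directions with the 2 hairpins for 6 genes of the endothelial and partner lists, of which 15 and 16 genes were tested. For these 6 the difference itself passed the test (shAMB minus sh4 on the log2 scale, a contrast chosen after seeing the data). For ACVRL1 the difference was 3.38 (adjusted p = 6.05e-08), for PTPRB 2.40 (adjusted p = 9.17e-07) and for BMPR2 1.22 (adjusted p = 5.22e-08), all higher with shAMB. For TGFBR2 it was -1.71 (adjusted p = 9.26e-08), for ETS1 -0.72 (adjusted p = 6.09e-06) and for NRP2 -0.62 (adjusted p = 1.21e-07), all lower with shAMB. ETS1 and NRP2 were named after their values were seen. Of all 14905 genes, 9078 were called in this contrast. The share of all genes called in opposite directions with the 2 hairpins was not counted, so no result is read from the 6. For the endothelial marker genes themselves the difference is described without a test: 0.68 for VWF, 1.58 for MMRN2, 1.15 for EGFL7, 0.06 for ENG and -1.02 for KDR.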

How the results depend on the processing

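Of 447 values under alternatives, 407 kept their direction and side of the threshold, or stayed within the replicate spread or 1.5 times a count. Of the other endothelial genes, 7 were called in the xenografts, 11 without the filter on low counts and 11 by DESeq2. With sh4, 9 were called and 2 at a log2 change of at least 1. Between sh4 and EV in DMSO, 1 was called, 0 at a log2 change of at least 1 and 0 to 1 when a library was left out. From log2(TPM + 0.1), which pulls low genes toward 0, VWF with shAMB went from 3.09 to 2.62, KDR from -1.54 to -1.095 with sh4, from -2.56 to -1.65 with shAMB and from -2.42 to -0.48 in the xenografts, MMRN2 with sh4 from -0.755 to -0.378 and PECAM1 in the xenografts from 2.39 to 0.40. Between sh4 and EV in DMSO the difference of VWF changed sign, at 0.0055 with a replicate block and from -0.13 to 0.19 when a library was left out.

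In the xenografts ENG was at 0.02, and at -0.049 without the filter, -0.062 with the replicate block and from -0.31 to 0.26 when a library was left out. CLDN5 was at 0.03, and at -0.042, -0.10 and from -0.34 to 0.34 in the same order. Leaving out a library took EGFL7 in the xenografts from -0.29 to 0.62, and in EV cells ENG from -0.13 to 0.41 and KDR from -0.10 to 0.23. None of these passed the threshold, and the cause was not tested. Same-numbered libraries did not deviate together (r from -0.60 to 0.58 in culture, over 0.1 in 12 of 45 pairs, and over 0.1 in 1 of 4 in the xenografts), so the replicate numbers were not used as pairs. With the block, 5 of the other endothelial genes were called in the xenografts. The depth limits FLT1, PECAM1, CLDN5, CDH5, TIE1 and TEK, which had at most 23 counts in any culture and at most 81 in any xenograft.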
